A study of Rattus norvegicus with 11 samples.

Results

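The genes described here were higher in every spinal cord library of paclitaxel-treated rats that received electrical stimulation than in every unstimulated library. They were also required to have a mean level with paclitaxel and an inactive electrode close to that of naive rats. There were 110 such genes among 14467 genes with a mean level of at least 1 CPM (the count scaled to a common library total), out of 32623 gene IDs in all. They were chosen by their measured values in all 11 libraries. The lowest stimulated library had to lie above the highest of the other 8 libraries, the mean of the stimulated libraries had to exceed that of the sham libraries by at least 0.4, and the sham mean had to lie within 0.15 of the naive mean, all on the scale of log2(CPM + 0.5). A difference of 0.4 is a 1.32-fold change and a difference of 0.15 is a 1.11-fold change. Because these values chose the genes, they are given as a description, and no test of them is offered.

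The deposited table names genes by Ensembl ID alone, and 0 of its IDs could be matched to a symbol with the gene table used here. The genes are therefore described as a group, with 2 IDs given in full, and no function, cell type, protein or promoter is assigned to any of them. As background, paclitaxel stabilises microtubules and is used against solid tumours, and a common side effect is a painful neuropathy of the hands and feet. Spinal cord stimulation (SCS) delivers current through an electrode over the dorsal columns and is used to treat chronic neuropathic pain. Its action is usually described in terms of dorsal horn inhibition, descending pathways and glial responses.

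RNA was measured in the ipsilateral spinal cord of adult male rats of 350 to 400 g. Naive rats (label Naive, 3 libraries) had neither drug nor electrode. Sham rats (label PTX+Sham SCS, 5 libraries) had intraperitoneal paclitaxel, 1.5 mg/kg each on days 1, 3, 5 and 7, and an implanted electrode without stimulation. Stimulated rats (label PTX+SCS, 3 libraries) had the same drug and electrode with current at 50 Hz and 0.2 ms pulses at 80% of MoT, as the label abbreviates it. No group analysed here had stimulation without paclitaxel, or paclitaxel without an electrode, so the genes are higher with stimulation added to both. The labels name neither strain nor age. Libraries carry the numbers of their sample titles, which run from 1 to 3 in naive and from 1 to 5 in sham and are 1, 2 and 5 in SCS. Titles mark the stimulated group with the letter S, which could be read as sham, and the group label was followed.

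Naive libraries held 17401720 to 56775931 counts, sham libraries 11243288 to 22144967 and stimulated libraries 18633243 to 29395233. Pairs of libraries of 1 group differed by 5.17 to 29.4 in chi-square per degree of freedom, more than counting error alone would give. These values do not show whether 2 libraries came from the same rat. The largest values were between stimulated libraries, at 18.3 to 29.4. The labels do not say that each library came from a separate rat, and the spread given below is that between these libraries. Nothing in the gene IDs allowed the tissue to be checked against its markers.

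Of the 14467 genes, 926 had all 3 stimulated libraries above all 8 others, a share of 6.40%, and 532 of them were also at least 0.4 above sham. The window around naive then removed most of these. In 411 of the 532 the sham mean was more than 0.15 above the naive mean, in 11 it was more than 0.15 below, and the 110 in between, or 20.7%, are the genes described here. The opposite pattern was rarer: 336 genes had all 3 stimulated libraries below all 8 others, 37 of them by at least 0.4 from sham, and 24 of those had sham within 0.15 of naive. No test was made of the difference between these counts.

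The borders of the rule cut through a continuous distribution. Just inside the 0.4 threshold lay genes at 0.404 and 0.408, and just outside it genes at 0.396 and 0.394. Within 0.05 of that threshold there were 17 genes inside and 36 outside. At the upper edge of the window the sham minus naive difference was 0.1496 and 0.1473 just inside and 0.1513 just outside. At the lower edge it was -0.129 and -0.122 inside and -0.174 outside. The gap between the lowest stimulated and the highest other library was 0.0023 and 0.0050 in the 2 narrowest genes kept, and 0 and -0.0041 in the 2 nearest genes left out. The lowest mean levels kept were 1.04 and 1.11 CPM, and the nearest levels left out were 0.991 and 0.882 CPM.

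**Figure D1:**
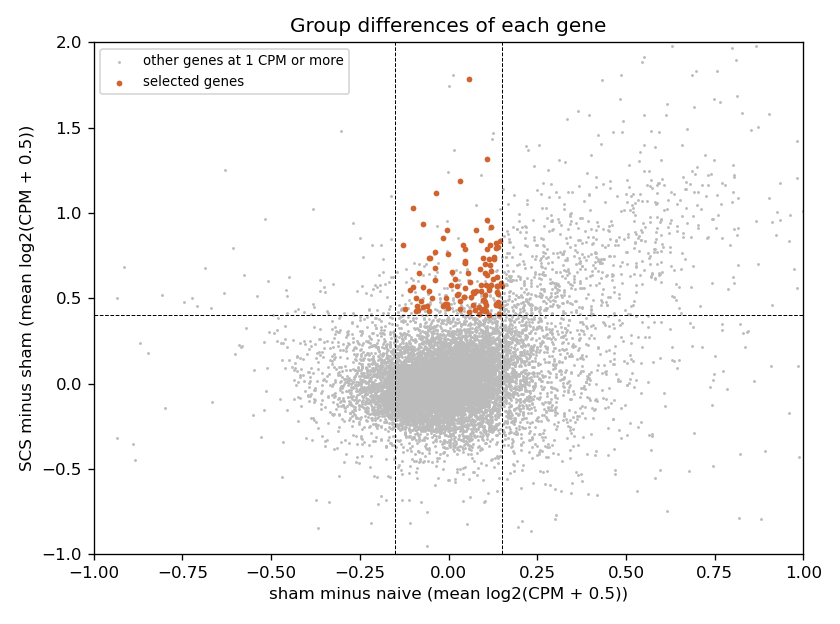
Each point is a gene with a mean of at least 1 CPM, placed by its sham minus naive difference (horizontal) and its SCS minus sham difference (vertical), both as differences of mean log2(CPM + 0.5); axes are limited to the central range and dashed lines mark the rule. The 110 selected genes fill only part of the box above 0.4 and between -0.15 and 0.15, since separation from all 8 other libraries was also required.

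The 110 genes were 1.32-fold to 3.45-fold higher in stimulated than in sham libraries, with a median of 1.48-fold (0.57 on the log2 scale, interquartile range 0.48 to 0.73). At least 1.5-fold was reached by 47 of them and at least 2-fold by 5. These folds come from mean log2(CPM + 0.5), where the added 0.5 makes those of genes at low CPM smaller. Over all 14467 genes the median difference was 0.0042 on the log2 scale. In these pieces of whole tissue, more cells of a type and more RNA per cell cannot be told apart. The difference from naive libraries had a median of 0.63 (range 0.32 to 1.84). The sham minus naive difference, held small by the rule, was not centred on 0. It was above 0 in 78 genes and below 0 in 32, with a median of 0.07 against -0.01 over all genes.

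The gene with the largest difference was ENSRNOG00000003183. It was at 21.43, 11.99 and 11.96 CPM in naive 1, 2 and 3, at 10.70, 11.01, 15.96, 14.41 and 29.33 CPM in sham 1 to 5, and at 35.79, 96.98 and 44.09 CPM in SCS 1, SCS 2 and SCS 5. All 3 stimulated libraries were above the rest, as the rule required. SCS 2 was at more than 2 times the level of either other library of its group, and sham 5 stood close under SCS 1. The group means were 15.1 ± 5.5 CPM in naive (SD, n = 3), 16.3 ± 7.6 CPM in sham (SD, n = 5) and 59.0 ± 33.2 CPM in stimulated libraries (SD, n = 3), and the difference of stimulated from sham was 1.79 on the log2(CPM + 0.5) scale. Without SCS 2 that difference was 1.36, and without sham 5 it was 2.02.

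ENSRNOG00000049028 had the next largest difference and the widest gap, 0.61 on the log2 scale, between its lowest stimulated and its highest other library. Naive 1, 2 and 3 held it at 2.64, 2.34 and 2.40 CPM, sham 1 to 5 at 3.25, 1.13, 2.71, 3.82 and 3.37 CPM, and SCS 1, SCS 2 and SCS 5 at 6.80, 9.93 and 6.08 CPM. SCS 2 was again the highest, sham 4 was the highest of the unstimulated libraries, and sham 2 was the lowest of all. The means were 2.46 ± 0.16 CPM in naive (SD, n = 3), 2.86 ± 1.04 CPM in sham (SD, n = 5) and 7.60 ± 2.04 CPM in stimulated libraries (SD, n = 3), a difference of 1.32 from sham. Without sham 2 the difference was 1.08.

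**Figure D2:**
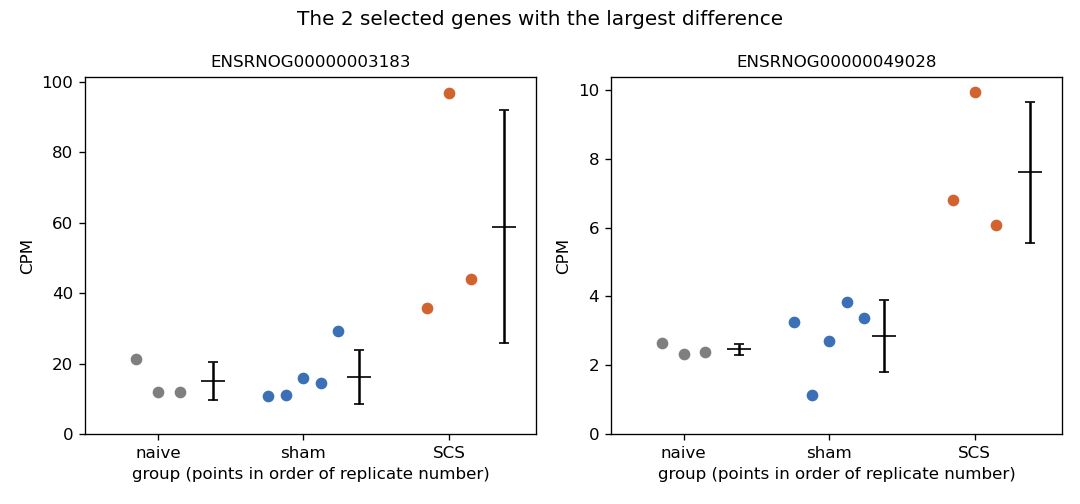
CPM of ENSRNOG00000003183 (left) and ENSRNOG00000049028 (right) in each library, with the mean and SD of each group as a bar beside the points; naive n = 3, sham n = 5, SCS n = 3. In both genes the 3 stimulated libraries lie above the other 8, as the rule required, and SCS 2 is the highest. In the left panel sham 5, at 29.3 CPM, lies nearest to SCS 1, at 35.8 CPM.

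The 3 stimulated libraries did not contribute alike. SCS 2 was the highest library for 76 of the 110 genes, SCS 1 for 27 and SCS 5 for 7. SCS 5 was the lowest of the 3 for 61 genes, SCS 1 for 38 and SCS 2 for 11. Relative to the naive mean, the median over the 110 genes was 0.81 in SCS 2, 0.57 in SCS 1 and 0.49 in SCS 5. Over all 14467 genes the same medians were -0.012, -0.014 and 0.0077. Scaling to the column total brings such medians toward 0 without fixing them there. The most common order, SCS 2 above SCS 1 above SCS 5, was found in 42 genes, and SCS 2 above SCS 5 above SCS 1 in 34. The order of the 3 stimulated libraries was not counted over all genes. Over all 14467 genes, SCS 2 lay above all 8 unstimulated libraries in 25.7%, SCS 1 in 17.4% and SCS 5 in 16.3%.

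Together the 110 genes took 0.169%, 0.164% and 0.172% of the counts in naive 1 to 3. They took 0.170%, 0.164%, 0.173%, 0.192% and 0.194% in sham 1 to 5, and 0.252%, 0.301% and 0.243% in SCS 1, SCS 2 and SCS 5. That all 3 stimulated libraries were above all others is fixed by the rule, which required it of each gene. Sham 4 and sham 5 were the highest of the others.

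The sham libraries divided in the same way gene by gene. Relative to the naive mean, the median of the 110 genes was -0.0064 in sham 1, -0.048 in sham 2, 0.052 in sham 3, 0.15 in sham 4 and 0.21 in sham 5. Sham 5 exceeded all 3 naive libraries in 68 of the 110 genes and sham 4 in 55, against 29 in sham 1, 21 in sham 2 and 34 in sham 3. Over all 14467 genes those shares were 38.6%, 31.5%, 20.8%, 26.4% and 33.5% for sham 5, 4, 1, 2 and 3. Of the 8 unstimulated libraries, sham 5 was the one closest under the stimulated group for 39 genes and sham 4 for 32, or 71 of 110 in all. A naive library held that place for 15 genes. Over all 14467 genes, sham 5 was the highest of the 8 in 23.2% and sham 4 in 14.6%. For naive 1, 2 and 3 it was 10.9%, 14.5% and 6.14%. Sham 4 was the smallest library, with 11243288 counts, and sham 5 had 19570408, the second largest of its group. The part of depth in this was not tested in the libraries one by one.

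**Figure D3:**
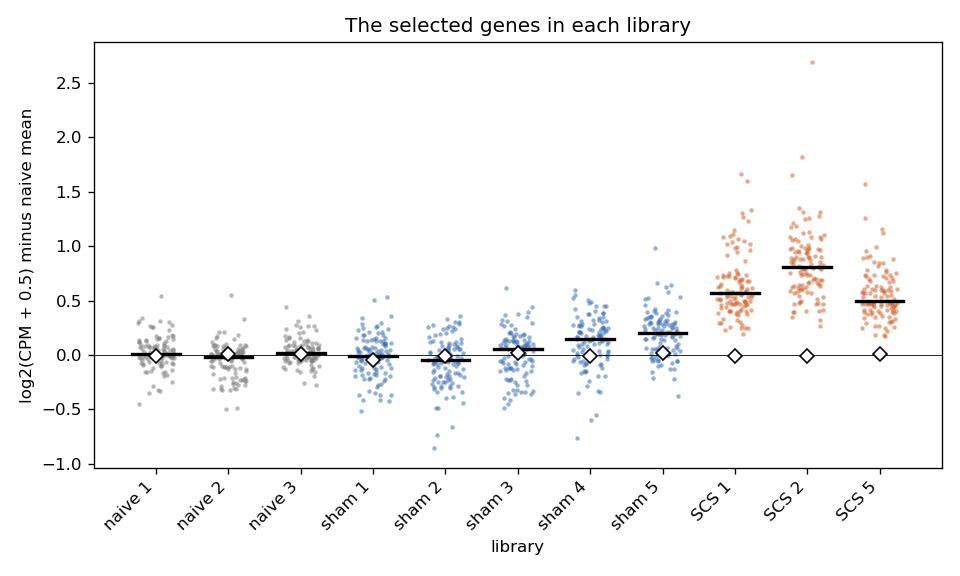
Each point is 1 of the 110 selected genes in 1 library, as log2(CPM + 0.5) minus the gene's mean over the naive libraries; bars mark the median of the 110 and white diamonds the median of all 14467 genes. The bars are at 0.57, 0.81 and 0.49 in SCS 1, SCS 2 and SCS 5 and rise to 0.15 and 0.21 in sham 4 and sham 5, while the diamonds stay near 0.

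The spread between libraries of a group was wider for the 110 genes than for all genes. The median SD of log2(CPM + 0.5) was 0.12 among naive, 0.21 among sham and 0.19 among stimulated libraries, against 0.080, 0.13 and 0.13 over all 14467 genes. The 110 genes were also less abundant, with a median of 8.98 CPM (range 1.04 to 151) against 24.4 CPM over all genes. Under 5 CPM there were 40 of the 110, or 36.4%, compared with 17.2% of all genes. Levels of 5 to 20 CPM were found for 44 genes, 20 to 100 CPM for 23 and above 100 CPM for 3. No test was made of these differences, because the rule used the same values. Spread was not compared with that of genes at a similar level, so the wider spread and the lower level cannot be told apart here.

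The counts behind the separation were often small. In the lowest stimulated library the median was 248 counts (27 to 3794), and in the highest of the other 8 it was 156 counts (20 to 2115). With exact Poisson intervals at 95%, which cover counting error only, the lowest stimulated and the highest other library did not overlap for 15 of the 110 genes and overlapped for 95. This overlap was not counted over all genes, so these counts have no background share beside them. All 15 genes without overlap had a mean of at least 5 CPM. ENSRNOG00000003183 was among them, with a lower bound of 33.7 CPM in SCS 1 above an upper bound of 31.8 CPM in sham 5. ENSRNOG00000049028 was not, since its lower bound of 5.10 CPM in SCS 5 met an upper bound of 5.15 CPM in sham 4. After all libraries were thinned to 11243288 counts, an alternative chosen after seeing the data, 112 genes met the rule and 62 of the 110 were among them. The count was close to 110, and 48 genes no longer met the rule.

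**Figure D4:**
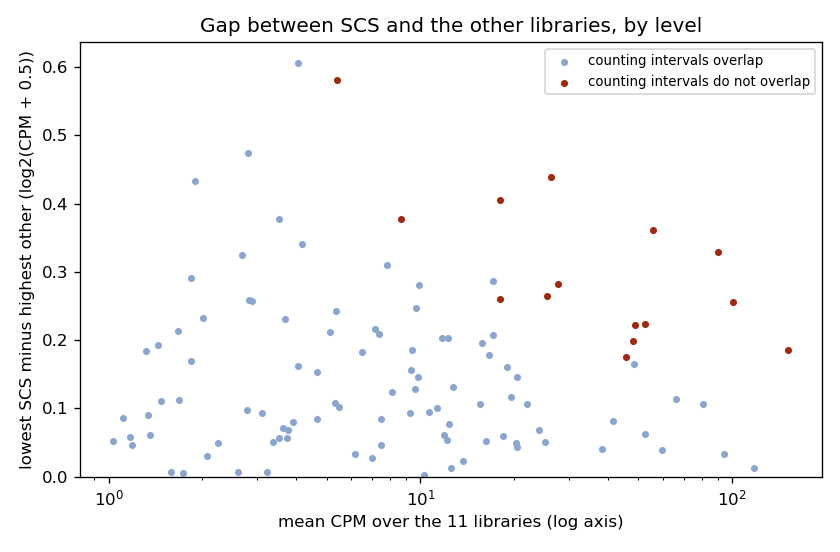
For each of the 110 genes, the gap between the lowest stimulated and the highest other library in log2(CPM + 0.5) is plotted against its mean CPM on a log axis; dark red marks the 15 genes whose 95% counting intervals in these 2 libraries do not overlap. The median gap is 0.12 and the widest 0.61, and the 15 genes all lie at 5 CPM or more. Overlap was not counted for other genes.

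Applying the rule to 10 libraries allowed the library left out to be read for genes it had not helped to choose. This comparison was added after seeing the data, and the sham and naive values were still shared with the choice. Without SCS 1, 216 genes were chosen, and SCS 1 lay above all 8 unstimulated libraries in 127 of them (58.8%, against 17.4% of all 14467 genes). Its median was 0.31 above the sham mean, where the 2 stimulated libraries that chose the genes stood 0.54 above it. Without SCS 5, 246 genes were chosen, and SCS 5 lay above all 8 in 134 of them (54.5%, against 16.3% of all genes), with a median of 0.28 above sham. Without SCS 2, 94 genes were chosen, and SCS 2 lay above all 8 in 79 of them (84.0%, against 25.7% of all genes), with a median of 0.69 above sham. The 8 unstimulated libraries had to be low in the chosen genes, so the share over all genes is not the share that would be found without a difference, and none was computed.

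The sham libraries were read in the same way. Without sham 5 the rule chose 308 genes, and sham 5 lay above all 7 remaining unstimulated libraries in 227 of them (73.7%, against 23.2% of all genes). Its median there was 0.43 above the naive mean, and it exceeded the lowest stimulated library in 137 genes. Without sham 4 there were 176 genes, with sham 4 above the other 7 unstimulated libraries in 89 (50.6%, against 14.6% of all genes) and a median of 0.25 above the naive mean. Without sham 1, sham 2 or sham 3 there were 102, 85 and 130 genes, and the medians of the library left out were 0.065, 0.047 and 0.14 above the naive mean. They lay above the other 7 in 15.7%, 12.9% and 26.9% of those genes, against 5.81%, 9.48% and 15.5% of all genes. Naive 1, 2 and 3, left out in turn, did so in 6.9%, 4.58% and 4.9%. Over all genes the naive shares were 10.9%, 14.5% and 6.14%. Their medians were -0.036, -0.079 and -0.030 from the mean of the remaining naive libraries. Sham 5, which had no stimulation by its label, was thus higher than naive in genes chosen without it by a median of 0.43, where SCS 1, SCS 5 and SCS 2 stood 0.36, 0.31 and 0.74 above naive in genes chosen without them. Those gene sets differ, the naive means also entered each choice, and no test was made between the sets. The remaining unstimulated libraries had to be low in the chosen genes here too. The shares over all genes are therefore not those that would be found without a difference.

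**Figure D5:**
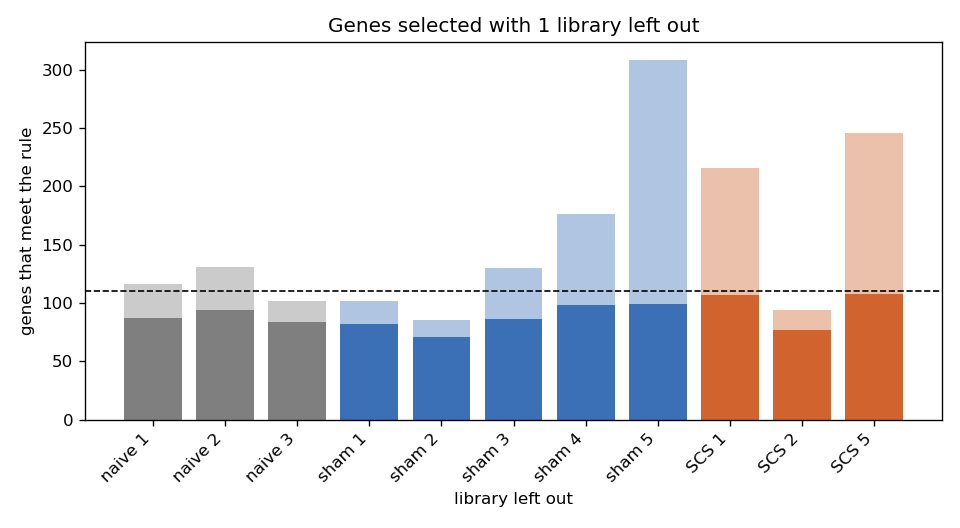
Number of genes that meet the rule when the library on the horizontal axis is left out (pale bars) and how many of these are among the 110 chosen with all libraries (solid part); the dashed line is at 110. The count is 308 without sham 5, 246 without SCS 5 and 216 without SCS 1, and between 85 and 176 without any other single library.

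The genes were also looked up in a quasi-likelihood fit (edgeR) of all 15758 genes with enough counts, which included all 110. At an adjusted p of 0.05, 61 of the 110 passed as higher in stimulated than in sham libraries, where 3.00% of all genes tested did so. The rule used this contrast, so nothing is read from that share. The 61 made up 12.9% of the 472 genes that passed as higher and 55.5% of the 110. ENSRNOG00000049028 was among the 61 and ENSRNOG00000003183 was not. In stimulated against naive libraries 85 passed as higher, where 10.1% of all genes did. The rule used this contrast too, and nothing is read from that share either. Both contrasts share the stimulated libraries, and 59 genes passed in both. The number of the 110 that passed against sham moved together with the number over all genes, which was 563 in either direction. Without SCS 2, 7 of the 110 passed among 36 genes in all. Without sham 1, sham 2 and sham 3 it was 26 among 175, 31 among 224 and 35 among 230. In a fit of the stimulated and sham libraries alone it was 27 among 140. Against naive, where 2342 genes passed in all, it was 50 among 1018 without naive 2 and 53 among 1091 without SCS 2.

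In sham against naive libraries 0 of the 110 passed in the edgeR fit, where 0.140% of all genes tested did so in either direction. At an unadjusted p under 0.05 there was 1 gene of the 110 by edgeR, 1 by DESeq2 and 1 by limma-voom, where 7.98%, 5.82% and 8.21% of all genes tested did so. With adjustment 0 of the 110 passed among the 132 genes called by DESeq2 and 0 among the 20 called by limma-voom. The sham and naive libraries overlapped in every one of the 110 genes, while they did not overlap in 7.85% of the 14467. The window of the rule sets these counts. A p above the threshold does not show that sham and naive libraries had equal levels of these genes.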

How the data were processed

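The authors deposited raw counts for each Ensembl gene ID of the rat. HISAT2, featureCounts, DESeq2 and build rn6 are named in the submitters' processing notes. Their versions, the annotation release and the strand setting are not stated, so counts of overlapping, antisense or near-identical genes are uncertain. Per the labels' protocols, libraries were directional and made from poly(A)-selected RNA. Columns were assigned by sample title, and 17 further sample columns were not used.

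The rule was applied to CPM from column totals with a pseudocount of 0.5 (Python 3.11.15). The members and gene lists were chosen with earlier results of these data known. The 42 gene lists (1288 entries) could not be used, since 0 IDs matched a symbol among 47357 RefSeq genes (GRCr8). Genes were to be named by symbol, so only the 2 IDs with the largest difference are printed. The count of genes was not set against regrouped labels.

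All 11 libraries entered 1 quasi-likelihood fit in edgeR 4.0.16 (R 4.3.3), with filterByExpr, TMM scaling, a term per group, 8 residual degrees of freedom, two-sided tests and Benjamini-Hochberg adjustment over all genes tested (threshold 0.05). DESeq2 1.42.0 and limma 3.58.1 were alternatives. The fit and the rule were run on simulated counts with planted 2-fold changes. Those for the rule held counting error only, and those for the fit held the same spread for every gene. Neither had the spread of these libraries, so these runs do not show how the rule or the fit performs on them.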

Additional observations from a re-analysis of the deposited data

How the results depend on the processing

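The number of genes that met the rule was 103 and 115 with pseudocounts of 0.1 and 2 (100 and 84 of them among the 110), 110 and 102 with TMM and median-ratio scaling (104 and 99 shared), and 158 with no minimum level. It moved further, by construction, with a minimum of 5 CPM (70), a difference of 0.3 (200) or of 1.5-fold (47), and a window of 0.1 (64) or 0.25 (213). Leaving out 1 library gave 85 to 308 genes, of which 71 to 108 were among the 110. In the edgeR fit, 61 of the 110 passed in stimulated against sham libraries (7 to 75 with 1 library left out, 27 with these groups alone), 85 in stimulated against naive (50 to 87) and 0 in sham against naive in every alternative run. DESeq2 called 89 of the 110 against sham, among 1138 genes against 563 in edgeR, and why the total differed was not tested. A fit with a replicate block left 1, 39 and 0 of the 110 past the threshold in these contrasts, among 5, 672 and 9 genes in all, against 563, 2342 and 22 without the block. Deviations of same-numbered libraries correlated at -0.17 to 0.13, and equal numbers were not treated as pairs. The rule fixes the sign of the difference of both printed genes, which were not followed singly in the other fits. Counting intervals of the closest libraries overlapped for 95 of the 110 genes, and the part of depth in this was not tested. Such an overlap is not a test of the difference in counts, and it was not counted for other genes.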
